A study of Mus musculus with 4 samples.

Results

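The subject here is the proteasome, the protease complex that degrades ubiquitin-tagged proteins, in mouse embryonic fibroblasts (MEFs) with and without tumour necrosis factor (TNF). The members are 38 genes chosen by name: the subunits of the 20S core and of the 19S regulatory particle, and the activators that bind the core. Of these, 37 had a probe set naming that gene alone, among 18193 genes so covered. The only probe set of Psme2 also names Psme2b, a near-identical copy, so Psme2 has no value here. The 37 genes are covered by 81 probe sets, and where a gene had several, the one with the highest mean over the arrays was taken. All 37 of those chosen lay above a floor of 77.0 signal units, the median of all deposited values, on all 4 arrays.

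MEFs, primary fibroblasts grown out of embryos, came from C57BL/6 embryos that were FAN -/- or FAN +/+. FAN is an adaptor protein of the TNF receptor encoded by Nsmaf. FAN -/- cells treated with TNF, FAN -/- cells left untreated, FAN +/+ cells treated with TNF and FAN +/+ cells left untreated were each measured on 1 Affymetrix mouse array from total RNA. All cells were kept in medium with 0% serum for 24 h, and treated cells received TNF at 50 ng/ml for the last 16 h, after 8 h without it. The deletion itself and the number of embryos behind each culture are not given in the sources used here. Below, FAN -/- cells are called FAN-deficient and FAN +/+ cells wild-type.

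The core of the proteasome is a stack of rings of alpha and beta subunits, and its proteolytic sites lie on the beta subunits Psmb5, Psmb6 and Psmb7. Interferons and TNF are known to switch on Psmb8, Psmb9 and Psmb10, which take the places of Psmb5, Psmb6 and Psmb7 in newly made particles. The resulting immunoproteasome cuts peptides that suit MHC class I molecules, and the activator made of Psme1 and Psme2 opens the core. Cells of the immune system carry much immunoproteasome, while fibroblasts carry mainly the constitutive form until stimulated.

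The upstream sequences of 6 genes that the results describe are shown. They belong to the inducible Psmb8, Psmb9 and Psmb10, to Psmb5 and Psmb6, whose products are exchanged for those of Psmb8 and Psmb9, and to Psma6, the one constitutive subunit that rose with TNF. Each is the 250 bases before an annotated start in RefSeq (GRCm38.p6), 5′ to 3′ on the gene's strand. Psmb8 lies on the plus strand at chr17:34197945-34198194, Psmb9 on the minus strand at chr17:34187331-34187580 and Psmb10 on the minus strand at chr8:105938393-105938642. Psmb5 lies on the minus strand at chr14:54617996-54618245, Psmb6 on the plus strand at chr11:70525107-70525356, and the second of the Psma6 starts on the plus strand at chr12:55398575-55398824. Capitals mark a match, on either strand, to the interferon gamma activated site TTCNNNGAA, the interferon-stimulated response element (ISRE) core of GAAA, any 2 bases and GAAA, the NF-kB letters of GGGA, any 4 bases and CC, or the antioxidant response element TGACNNNGC.
Psmb8: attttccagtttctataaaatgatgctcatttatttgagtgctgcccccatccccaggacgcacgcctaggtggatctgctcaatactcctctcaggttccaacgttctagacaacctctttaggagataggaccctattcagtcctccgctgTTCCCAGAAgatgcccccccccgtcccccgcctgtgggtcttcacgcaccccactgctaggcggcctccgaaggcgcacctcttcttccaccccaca
Psmb9: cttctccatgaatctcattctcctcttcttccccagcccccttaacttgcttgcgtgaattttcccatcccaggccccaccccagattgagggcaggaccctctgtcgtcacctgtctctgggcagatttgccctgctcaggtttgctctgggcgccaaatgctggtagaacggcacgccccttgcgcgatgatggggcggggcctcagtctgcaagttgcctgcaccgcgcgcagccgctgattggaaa
Psmb10: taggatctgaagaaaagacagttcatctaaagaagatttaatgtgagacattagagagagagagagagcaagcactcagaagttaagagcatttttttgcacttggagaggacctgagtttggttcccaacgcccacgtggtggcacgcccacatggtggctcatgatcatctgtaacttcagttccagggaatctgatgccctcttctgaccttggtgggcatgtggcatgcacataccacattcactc
Psmb5: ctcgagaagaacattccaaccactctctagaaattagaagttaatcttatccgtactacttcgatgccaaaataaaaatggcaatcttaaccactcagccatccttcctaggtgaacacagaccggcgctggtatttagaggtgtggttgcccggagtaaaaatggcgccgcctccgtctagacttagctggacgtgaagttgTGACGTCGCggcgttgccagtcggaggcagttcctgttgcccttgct
Psmb6: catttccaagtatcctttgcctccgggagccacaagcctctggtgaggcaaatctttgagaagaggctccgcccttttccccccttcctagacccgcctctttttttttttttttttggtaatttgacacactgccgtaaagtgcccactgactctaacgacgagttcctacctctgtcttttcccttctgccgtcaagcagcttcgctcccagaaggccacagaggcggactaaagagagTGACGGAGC
Psma6: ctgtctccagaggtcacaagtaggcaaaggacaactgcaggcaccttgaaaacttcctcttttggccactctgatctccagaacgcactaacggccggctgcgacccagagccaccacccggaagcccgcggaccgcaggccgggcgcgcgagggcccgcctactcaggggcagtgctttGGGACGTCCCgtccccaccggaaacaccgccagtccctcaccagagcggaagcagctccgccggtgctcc
Psmb8 carries TTCCCAGAA, a match to the interferon gamma activated site, Psma6 carries at this start GGGACGTCCC, which matches the NF-kB letters on both strands, and Psmb5 and Psmb6 carry TGACGTCGC and TGACGGAGC, matches to the antioxidant response element. The window of the other annotated Psma6 start, not printed, and the Psmb9 and Psmb10 windows hold no match to these letters. Windows were found for 5 inducible and 27 constitutive members. The NF-kB letters occurred in 0 of the 5 and 9 of the 27, against 19.7% of all 27025 genes with a window. The interferon gamma activated site occurred in Psmb8 among the 5 and in 0 of the 27 (8.13% of all genes), and the ISRE core in 0 of the 5 and in Psmb3 and Psmd4 of the 27 (3.46% of all genes). The antioxidant response element occurred in 0 of the 5 and 4 of the 27 (11.5% of all genes), and the letters CCAAT, not marked above, in 1 of the 5 and 11 of the 27 (37.5% of all genes). These matches describe letters in a window, and their part in the TNF responses was not tested.

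Each condition is a single array, so sizes of differences between arrays stand unreplicated and carry no p-value. Where the arrays of 2 groups are said to lie apart or not to overlap, the share of all genes that do so was not counted. The words "rose" and "fell" are used where a gene passed limma fitted with a genotype term and a TNF term (Benjamini-Hochberg adjusted p under 0.05 over 11817 genes). Each level then has 2 arrays, and a gene's own error comes from the unequal TNF responses of the genotypes. limma draws that error towards the error of genes of similar signal, so an SE is not the gene's own spread alone. That fit leaves 1 residual degree of freedom, beside 3.52 borrowed from the other genes. The labels do not say that the arrays come from separate cultures, so its p-values speak of these arrays. Nsmaf had signals of 179 (TNF) and 240 (untreated) on the FAN-deficient arrays, against 376 and 496 on the wild-type arrays, in the direction the titles give. The genotype entry of 2 samples contradicts their titles: the array titled FAN +/+ with TNF is entered there as FAN -/-, and the array titled FAN -/- without TNF as wild type. The grouping follows the titles; by that entry, genotype and TNF could not be told apart. Fibroblast markers were above the floor on all arrays (10 of 10). Of 13 leukocyte markers measured, 7 lay above the floor on the TNF-treated and 6 on the untreated arrays of both genotypes. Ptprc, Cd68, Itgam, Adgre1, Coro1a and Tyrobp were at or below it on every array.

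The inducible catalytic subunits were the members with the largest TNF responses in wild-type cells. Psmb8, which replaces Psmb5, had a signal of 517 with TNF and 132 without it in FAN-deficient cells, a 3.91-fold difference. In wild-type cells it had 1138 with TNF and 203 without it, a 5.6-fold difference. Both TNF arrays lay above both untreated arrays, and the FAN-deficient signal was the lower at each treatment. Across both genotypes Psmb8 rose by 2.23 ± 0.17 log2 (SE, limma adjusted p = 0.016).

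Psmb10, which replaces Psmb7, followed the same course. Its signal was 1474 with TNF and 380 untreated in FAN-deficient cells, 3.88-fold apart. It was 2333 with TNF and 430 untreated in wild-type cells, 5.43-fold apart. The groups with and without TNF did not overlap, and Psmb10 rose by 2.20 ± 0.15 log2 (SE, limma adjusted p = 0.013).

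Psmb9, which replaces Psmb6, had a signal of 157 with TNF and 95.3 untreated in FAN-deficient cells, 1.65-fold apart. In wild-type cells it had 370 with TNF and 112 untreated, 3.29-fold apart. Its untreated signals lay close to the floor of 77.0, and the TNF-treated FAN-deficient array stood nearer to the untreated arrays than to the treated wild-type one. The mean response of 1.22 ± 0.26 log2 did not pass (SE, limma adjusted p = 0.10). With a floor at the 70th percentile of all values, both FAN-deficient signals of Psmb9 lie at that floor.

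Psme1, a subunit of the activator that opens the core, had a signal of 1852 with TNF and 1303 untreated in FAN-deficient cells, 1.42-fold apart. It had 2886 with TNF and 1499 untreated in wild-type cells, 1.93-fold apart. Both TNF arrays were again the higher ones, by less than for the catalytic subunits. The mean response of 0.73 ± 0.14 log2 did not pass the test (SE, limma adjusted p = 0.081).

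**Figure D1:**
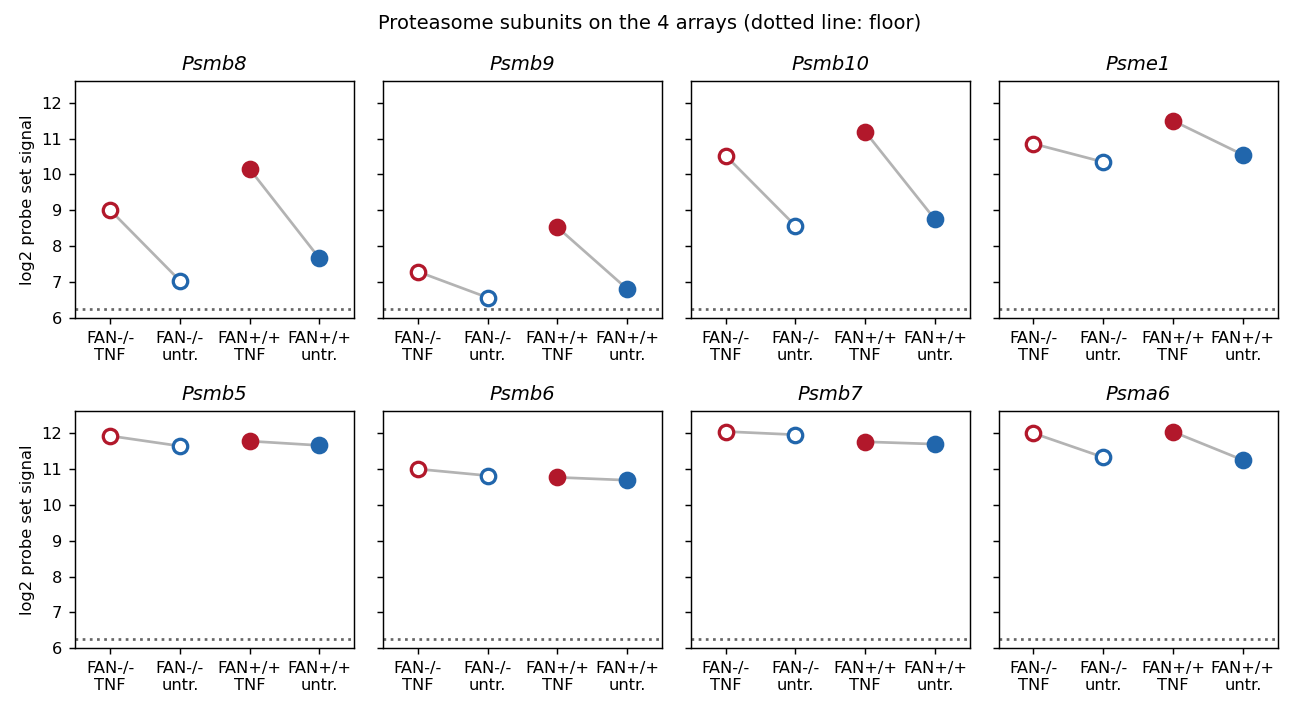
Log2 probe set signal (vertical axis) of 8 proteasome genes on each of the 4 arrays (horizontal axis); open circles are FAN -/- cells, filled circles FAN +/+ cells, red TNF-treated, blue untreated, grey lines join the arrays of a genotype and the dotted line is the floor (log2 6.27). Psmb8, Psmb9, Psmb10 and Psme1 are higher on both TNF arrays, Psmb5, Psmb6 and Psmb7 lie nearly level, and Psma6 is higher with TNF in both genotypes.

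Their constitutive counterparts stayed nearly level. Psmb5 had signals of 3861 with TNF and 3174 untreated in FAN-deficient cells, and 3488 with TNF and 3213 untreated in wild-type cells. Psmb6 had 2036 and 1793 in FAN-deficient cells, and 1735 and 1642 in wild-type cells, TNF value first. Psmb7 had 4197 and 3947 in FAN-deficient cells, and 3444 and 3294 in wild-type cells in the same order. The log2 responses of the genes in each exchanged pair can be set side by side. In FAN-deficient cells they were 1.97 for Psmb8 and 0.28 for Psmb5, 0.72 for Psmb9 and 0.18 for Psmb6, and 1.96 for Psmb10 and 0.09 for Psmb7. In wild-type cells they were 2.49 and 0.12, 1.72 and 0.08, and 2.44 and 0.06 for the same pairs. The TNF effects of Psmb5, Psmb6 and Psmb7 were 0.20 ± 0.09, 0.13 ± 0.09 and 0.08 ± 0.08 log2 (SE, limma adjusted p = 0.32, 0.49 and 0.65). The noncatalytic beta subunits Psmb1, Psmb2, Psmb3 and Psmb4 responded by 0.01, 0.25, 0.16 and 0.23 log2 in FAN-deficient cells and by -0.09, 0.20, 0.30 and 0.10 in wild-type cells, and none passed the test. Psmb1 was the constitutive member with the lowest mean response, with signals of 3406 with TNF and 3388 untreated in FAN-deficient cells, and 3072 with TNF and 3266 untreated in wild-type cells.

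Within the alpha ring, which forms the gate of the core, Psma6 stood apart. Its signal was 4065 with TNF and 2555 untreated in FAN-deficient cells, 1.59-fold apart. It was 4174 with TNF and 2422 untreated in wild-type cells, 1.72-fold apart. The 2 TNF signals lay close together and well above the 2 untreated ones, with little separation between genotypes. Psma6 rose by 0.73 ± 0.08 log2 (SE, limma adjusted p = 0.032; 0.053 with eBayes run without the intensity trend).

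A second Psma6 probe set above the floor on all arrays gave log2 responses of 0.68 in FAN-deficient and 0.99 in wild-type cells. Of its remaining probe sets, one lay above the floor on both TNF arrays and below it on both untreated arrays, and one lay below it on every array. Nfkbia, the NF-kB inhibitor gene, is the next protein-coding gene after Psma6 in RefSeq order (GRCm38.p6), 70949 bases away. The other 6 alpha subunits were Psma1, Psma2, Psma3, Psma4, Psma5 and Psma7. Their chosen probe sets responded by 0.10 to 0.23 log2 in FAN-deficient cells and by 0.03 to 0.21 in wild-type cells. Other probe sets above the floor on all arrays reached 0.27 in FAN-deficient cells (Psma5) and 0.38 in wild-type cells (Psma7).

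The regulatory particle, which recognises, unfolds and feeds substrates into the core, showed small differences. Among its 6 ATPases, Psmc1 to Psmc6, log2 responses ran from 0.00 (Psmc3) to 0.30 (Psmc4) in FAN-deficient cells and from -0.08 (Psmc5) to 0.31 (Psmc4) in wild-type cells. Psmc4 had signals of 1558 with TNF and 1265 untreated in FAN-deficient cells, and 1353 with TNF and 1089 untreated in wild-type cells. Among the 11 non-ATPase subunits the responses ran from 0.11 (Psmd6) to 0.35 (Psmd8) in FAN-deficient cells and from -0.06 (Psmd3) to 0.34 (Psmd8) in wild-type cells. Psmd8 had signals of 4469 with TNF and 3518 untreated in FAN-deficient cells, and 3841 with TNF and 3038 untreated in wild-type cells. Psmc3, next lowest to Psmb1 by mean response, had 2557 with TNF and 2554 untreated in FAN-deficient cells, and 2098 with TNF and 2176 untreated in wild-type cells. Another Psmc4 probe set above the floor on all arrays responded by 0.05 log2 in FAN-deficient and 0.26 in wild-type cells. Psmd8 and Psmc4, on the chosen probe sets, were higher on both TNF arrays than on the untreated array of their genotype, by about the same amount in each. Neither passed the test (limma, 0.34 ± 0.08 log2, adjusted p = 0.12 for Psmd8; 0.31 ± 0.09 log2, adjusted p = 0.19 for Psmc4). The scaffold subunits Psmd11 and Psmd2 had responses of 0.32 and 0.24 log2 in FAN-deficient cells, and 0.06 and 0.01 in wild-type cells. The deubiquitinase subunit Psmd14 had a response of 0.22 in FAN-deficient and 0.07 in wild-type cells, and the ubiquitin receptor Psmd4 had 0.15 in FAN-deficient and -0.02 in wild-type cells.

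On the chosen probe sets, the activators that do not belong to the immunoproteasome did not follow Psme1. Psme3, which forms the nuclear relative of the Psme1 and Psme2 activator, had signals of 369 with TNF and 311 untreated in FAN-deficient cells, and 368 with TNF and 390 untreated in wild-type cells. Psme4, a large single-chain activator, had 1478 with TNF and 1510 untreated in FAN-deficient cells, and 1424 with TNF and 1393 untreated in wild-type cells. On these probe sets neither gene separated the TNF arrays from the untreated arrays, and neither passed the test (limma adjusted p = 0.80 and 1.0). A second Psme3 probe set above the floor on all arrays was higher on both TNF arrays. It had 270 with TNF and 216 untreated in FAN-deficient cells, and 302 with TNF and 258 untreated in wild-type cells.

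Of the 37 members, 4 were at least 1.5-fold higher with TNF in FAN-deficient cells: Psmb8, Psmb9, Psmb10 and Psma6. The background is 3.19% of 12224 genes above the floor on at least 1 array, and 0 members were 1.5-fold lower (background 3.1%). In wild-type cells 5 members were 1.5-fold higher, these 4 and Psme1 (background 4.75%), and 0 were lower (background 6.5%). At least 2-fold higher were Psmb8 and Psmb10 in FAN-deficient cells (background 1.35%), and Psmb8, Psmb9 and Psmb10 in wild-type cells (background 2.2%). At least 2-fold lower were 0 members in either (background 1.07% in FAN-deficient and 1.92% in wild-type cells). By size, Psmb8 and Psmb10 held ranks 41 and 42 among the 12224 responses of FAN-deficient cells and ranks 35 and 38 among those of wild-type cells. Psmb9 held rank 287 in FAN-deficient cells and 95 in wild-type cells.

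The 4 inducible members had a median log2 response of 1.34 in FAN-deficient and 2.08 in wild-type cells. The 33 constitutive members had medians of 0.17 in FAN-deficient and 0.08 in wild-type cells, beside 0.01 and -0.03 for all genes. Of the 33, 32 were positive in FAN-deficient cells and 25 in wild-type cells, where 51.2% and 41.9% of all genes were. With arrays centred on their medians, the constitutive medians were 0.16 in FAN-deficient and 0.02 in wild-type cells. Psma6 was the only constitutive member past 1.5-fold in either genotype. Between 2 probe sets of a gene above the floor on all arrays, the response varied by up to 0.29 log2 in FAN-deficient and 0.31 in wild-type cells.

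**Figure D2:**
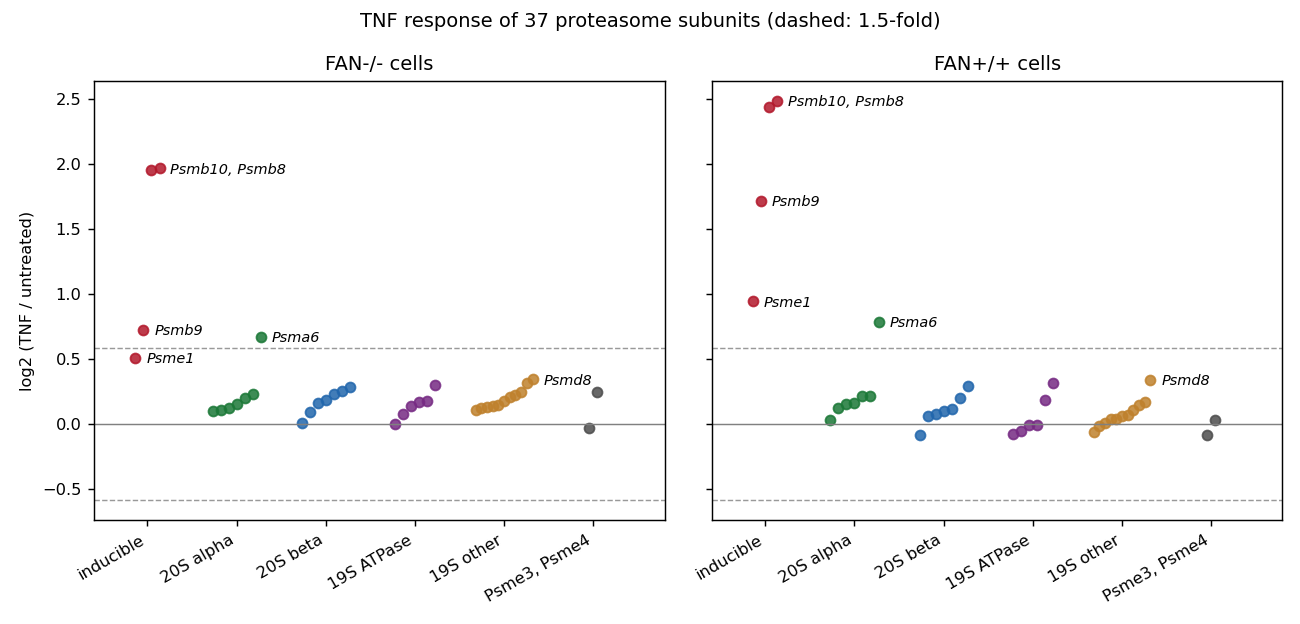
Log2 ratio of TNF-treated to untreated signal (vertical axis) for 37 proteasome genes by class (horizontal axis), FAN -/- cells on the left and FAN +/+ cells on the right; each point is a gene and dashed lines mark 1.5-fold. Psmb8 and Psmb10 lead in both genotypes, and Psma6 lies apart from the other constitutive genes, which lie between -0.09 and 0.35.

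In the limma fit 3 of 37 members rose with TNF, Psmb8, Psmb10 and Psma6 (background 1.57% of 11817 genes), and 0 fell (background 1.14%). At an unadjusted p under 0.05 limma also had Psmb9, Psme1, Psmc4, Psmd8 and Psmb2 higher, and no member lower. Of all 11817 genes, 969 were higher and 1250 lower at that p. The counts of members that rose changed in other settings. The count past the adjusted p was 0 with a gene's probe sets averaged (9 members higher at an unadjusted p under 0.05), without the filter on low values (11 members) and without the genotype term (4 members). It was 5 with the arrays centred on their medians, where Psmb9 and Psme1 passed as well.

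Leukocyte markers, whose cells carry immunoproteasome, had a summed signal of 1492 with TNF and 2031 untreated in FAN-deficient cells, and of 1641 with TNF and 1154 untreated in wild-type cells. Most of the gap in FAN-deficient cells came from Lyz2, a myeloid lysozyme gene, at 310 with TNF and 778 untreated. Without Lyz2 the sums were 1182 with TNF and 1253 untreated in FAN-deficient cells, and 1294 with TNF and 916 untreated in wild-type cells. The invariant chain gene Cd74 had 88.9 with TNF and 56.0 untreated in FAN-deficient cells, and 247 with TNF and 71.1 untreated in wild-type cells. The part of such cells in the responses was not tested. In bulk RNA, fewer cells of a type and less RNA per cell cannot be told apart.

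The responses were then set against each other between genotypes. All 4 inducible members had the smaller log2 response in FAN-deficient cells. The difference of responses, FAN-deficient minus wild-type, was -0.995 for Psmb9, -0.52 for Psmb8, -0.48 for Psmb10 and -0.44 for Psme1, beside a median of 0.05 over all genes. It was -0.12 for Psma6, and from -0.13 (Psmb3) to 0.33 (Psme3) over the 33 constitutive members, with a median of 0.05. Psmb9 was the member with a response at least 1.5-fold smaller (1 of 37, background 2.83%), and 0 had one at least 1.5-fold larger (background 3.63%). At 2-fold there were 0 in either direction (background 0.794% larger and 0.818% smaller). These differences use all 4 arrays and leave no error term, so they were not tested. Of the 7 leukocyte markers above the floor on at least 1 array, 3 also had a response at least 1.5-fold smaller in FAN-deficient cells. The differences of responses were -1.87 for Lyz2, -1.48 for Cd74 and -1.27 log2 for Csf1r, and the median of the 7 was -0.48. Their part in the differences of the inducible members was not tested.

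**Figure D3:**
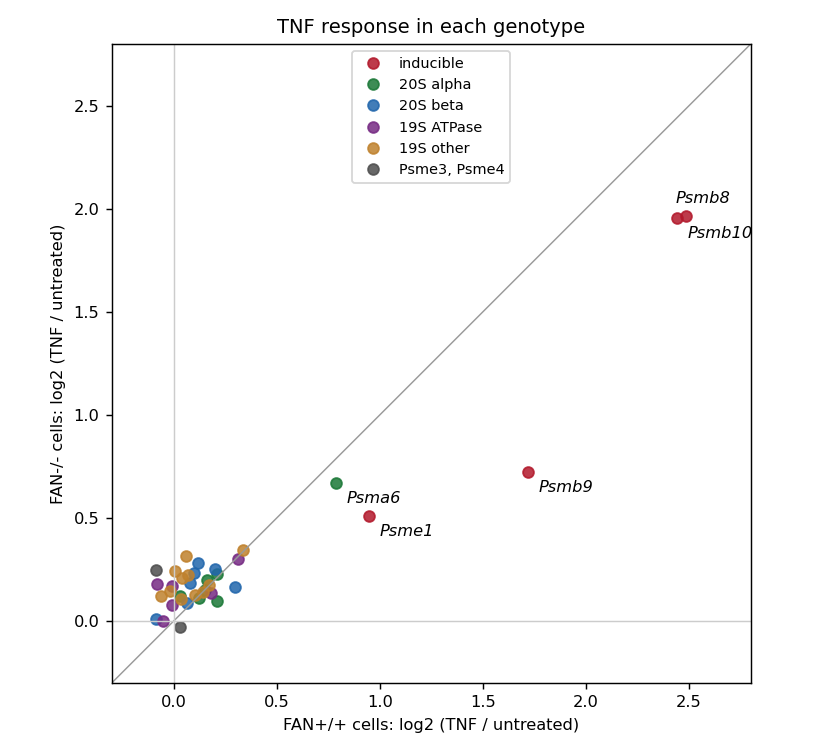
Log2 TNF response in FAN -/- cells (vertical axis) against that in FAN +/+ cells (horizontal axis) for 37 proteasome genes, coloured by class; the diagonal marks equal responses. Psmb8, Psmb9, Psmb10 and Psme1 lie below the diagonal, Psmb9 farthest (0.72 against 1.72), and the constitutive genes other than Psma6 cluster near the origin.

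Between genotypes, the inducible members were lower on the FAN-deficient arrays and more so with TNF. With TNF, the FAN-deficient signal was 2.35-fold lower for Psmb9, 2.20-fold lower for Psmb8, 1.58-fold lower for Psmb10 and 1.56-fold lower for Psme1. Untreated, it was 1.54-fold lower for Psmb8, 1.18-fold for Psmb9, 1.15-fold for Psme1 and 1.13-fold for Psmb10. With TNF these were the 4 members of 37 at least 1.5-fold lower (background 6.0%), and 0 were higher (background 4.47%). Untreated, Psmb8 alone was 1.5-fold lower (background 7.39%) and 0 were higher (background 4.42%). Psmb8 and Psmb9 were at least 2-fold lower with TNF (background 2.64%), and 0 members were untreated (background 2.89%). In the higher direction 0 members reached 2-fold (background 1.55% with TNF and 1.45% untreated).

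No member passed the limma test for genotype (background 2.94% of genes higher and 3.67% lower in FAN-deficient cells). The effects were -0.88 ± 0.17 log2 for Psmb8, -0.735 ± 0.26 for Psmb9, -0.42 ± 0.14 for Psme1 and -0.42 ± 0.15 for Psmb10 (SE, limma adjusted p = 0.057, 0.18, 0.16 and 0.19). Each of the 4 had an unadjusted p under 0.05, as had 7 constitutive members that were higher in FAN-deficient cells (Psma1, Psmb3, Psmb7, Psmc1, Psmc2, Psmc3 and Psmd8). Of all 11817 genes in that limma fit, 1325 were higher and 1574 lower at that unadjusted p. Psmb8 passed under quantile normalization, without a floor, and among genes above the floor on all 4 arrays, and Psmb8, Psmb9 and Psme1 passed with centred arrays. In the other settings run, 0 members passed.

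The FAN-deficient cells also differed in fibroblast markers: Lum had signals of 175 with TNF and 438 untreated, against 10978 and 6876 in wild-type cells. Dcn had 2336 and 2915, against 10218 and 6449, and Pdgfra 789 and 704, against 2751 and 1901. In the other direction, Thy1 had 642 and 1234, against 494 and 801, and was 1.54-fold higher untreated in FAN-deficient cells. Of the 10 markers, 3 were higher in FAN-deficient cells with TNF and 3 untreated. Lum, Dcn and Pdgfra fell in the limma genotype fit (adjusted p = 0.016, 0.035 and 0.012), and the other 7 markers did not pass. These 3 calls were lost without the filter on low values, without the TNF term and with averaged probe sets (limma adjusted p up to 0.35 for Lum, 0.42 for Dcn and 0.32 for Pdgfra over the settings run). Summed over the 10 markers, the signal was 84352 with TNF and 97278 untreated in FAN-deficient cells, against 112707 and 112398 in wild-type cells. Of the leukocyte markers, Cd74 was 1.5-fold lower in FAN-deficient cells with TNF (-1.48 log2), and Lyz2 and Csf1r were 1.5-fold higher untreated (1.71 and 1.30 log2). The part of these shifts in the proteasome differences was not tested.

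The constitutive subunits lay on the other side of 0. Their median log2 difference, FAN-deficient minus wild-type, was 0.17 with TNF and 0.11 untreated, beside 0.01 and -0.03 for all genes. With TNF 31 of 33 were positive (52.6% of all genes), and untreated 26 of 33 were (43.8% of all genes). With centred arrays the untreated median was 0.03 and that with TNF 0.14. The ATPases Psmc1 to Psmc6 were positive in both treatments, at 0.20 to 0.41 log2 with TNF and 0.06 to 0.27 untreated.

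On the chosen probe sets, Psmb3 had the highest mean difference of the constitutive members. Its signals were 2290 with TNF and 2044 untreated in FAN-deficient cells, against 1842 and 1501 in wild-type cells. Both FAN-deficient signals exceeded both wild-type ones (limma, 0.38 ± 0.09 log2, adjusted p = 0.095). Psmc1 followed with 1198 and 1065, against 901 and 907, and Psmb7 with 0.27 ± 0.08 log2 (limma adjusted p = 0.16 for Psmc1 and 0.13 for Psmb7). At the other end, Psme3 had a mean difference of -0.16, Psma4 of -0.088 and Psmd2 of 0.01 log2. Psma4 had signals of 3148 with TNF and 2835 untreated in FAN-deficient cells, against 3348 and 3011 in wild-type cells. Psmd2 had 3624 and 3061, against 3322 and 3307, so its genotypes overlapped. On the chosen probe sets the differences of all 33 stayed under 1.5-fold in both treatments. Between 2 probe sets of a gene above the floor on all arrays, this difference varied by up to 0.41 log2 untreated and 0.24 with TNF. Another probe set of Psmc4 had 0.62 log2 untreated, past 1.5-fold, and 0.41 with TNF. One of Psmc6 had 0.58 untreated and 0.47 with TNF, and the second of Psmb3 had 0.28 in each treatment.

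**Figure D4:**
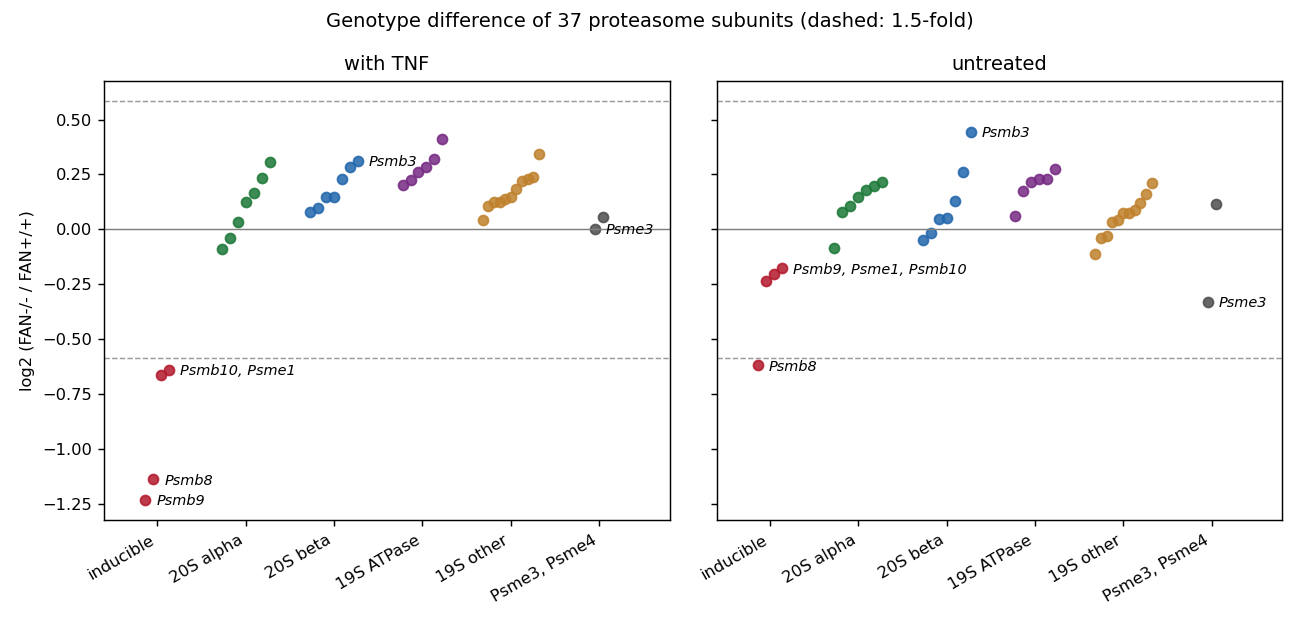
Log2 ratio of FAN -/- to FAN +/+ signal (vertical axis) for 37 proteasome genes by class (horizontal axis), with TNF on the left and untreated on the right; each point is a gene and dashed lines mark 1.5-fold. The 4 inducible genes lie below 0 in both panels, and past 1.5-fold together with TNF, while most constitutive genes lie slightly above 0.

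Genes that build, regulate or serve the proteasome were described by lists. Assembly chaperones hold subunits together before the particle is complete. Of 8, 1 rose with TNF in limma (background 1.57% of 11817 genes) and 0 fell (background 1.14%). That gene was Psmd10 (gankyrin), a chaperone of the regulatory particle. Its signal was 821 with TNF and 422 untreated in FAN-deficient cells, and 973 with TNF and 428 untreated in wild-type cells, the TNF arrays lying well above the others (limma, 1.07 ± 0.12 log2, adjusted p = 0.0285). Pomp, the chaperone of core assembly, had 3133 with TNF and 2745 untreated in FAN-deficient cells, and 3108 with TNF and 2585 untreated in wild-type cells (limma adjusted p = 0.25). The median TNF effect of the 8 was 0.19 log2, beside -0.02 over all genes tested. Among 12 associated factors (Usp14, Uchl5, Sem1, Psmf1 and others), 0 rose and 0 fell (background 1.57% and 1.14%), with effects from -0.08 to 0.17 log2.

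Among 7 measured regulators of subunit genes, 6 were tested and 2 rose with TNF (background 1.57%), while 0 fell (background 1.14%). Irf1, the interferon-response factor known to drive Psmb8, Psmb9 and Psmb10, had signals of 2439 with TNF and 697 untreated in FAN-deficient cells, and 2465 with TNF and 883 untreated in wild-type cells (limma, 1.64 ± 0.12 log2, adjusted p = 0.014). Its TNF signals were nearly the same in both genotypes. Rela, an NF-kB subunit, had 3998 and 2542 in FAN-deficient cells, and 4059 and 2258 in wild-type cells, TNF value first (limma, 0.75 ± 0.09 log2, adjusted p = 0.036). Nfe2l1, the factor that renews constitutive subunits when the proteasome is impaired, responded by 0.39 log2 in FAN-deficient and 0.02 in wild-type cells and did not pass (limma adjusted p = 0.43). Stat3 was lower with TNF in FAN-deficient cells, at 1734 against 2338 untreated, and slightly higher in wild-type cells, at 2622 against 2335 (limma adjusted p = 0.72). Ngly1, which processes the Nfe2l1 protein, had a genotype effect of -0.54 ± 0.10 log2 (limma adjusted p = 0.057).

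Peptide loading genes act downstream of the immunoproteasome. Of 10 genes, 4 rose with TNF (background 1.57%) and 0 fell (background 1.14%). Those that rose were H2-K1, H2-D1, Tapbp and Erap1, at 2.12, 1.37, 1.44 and 1.52 log2 (limma adjusted p = 0.0076, 0.014, 0.013 and 0.046). Between genotypes 4 of the 10 fell in FAN-deficient cells (background 3.67%). They were H2-K1, H2-D1, Tapbp and Tap2 (limma, -0.71, -0.85, -0.72 and -0.92 log2, adjusted p = 0.020, 0.022, 0.030 and 0.025). The TNF calls of H2-K1, H2-D1, Tapbp and Erap1 were lost without the filter, without the genotype term and with averaged probe sets, as were those of Psmd10, Irf1 and Rela, and those of Erap1 and Rela in 5 of 11 settings in all. The genotype calls were lost without the filter and without the TNF term, and those of H2-K1, H2-D1 and Tapbp with averaged probe sets too (limma adjusted p up to 0.79 for H2-K1, 0.63 for H2-D1, 0.69 for Tapbp and 0.36 for Tap2). Erap1, which trims peptides in the endoplasmic reticulum, had signals of 300.2 with TNF and 135 untreated in FAN-deficient cells, and 641 with TNF and 173 untreated in wild-type cells. Of 9 cytosolic peptidases, which act on proteasome products, 0 rose and 0 fell (background 1.57% and 1.14%), with TNF effects between -0.14 and 0.18 log2. Of the ubiquitin and ubiquitin-like list, 3 genes were covered, and Ube2l6, the Isg15-conjugating enzyme, had 77.0 with TNF and 47.8 untreated in FAN-deficient cells, and 144 with TNF and 39.9 untreated in wild-type cells. It exceeded the floor on the TNF-treated wild-type array alone.

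**Figure D5:**
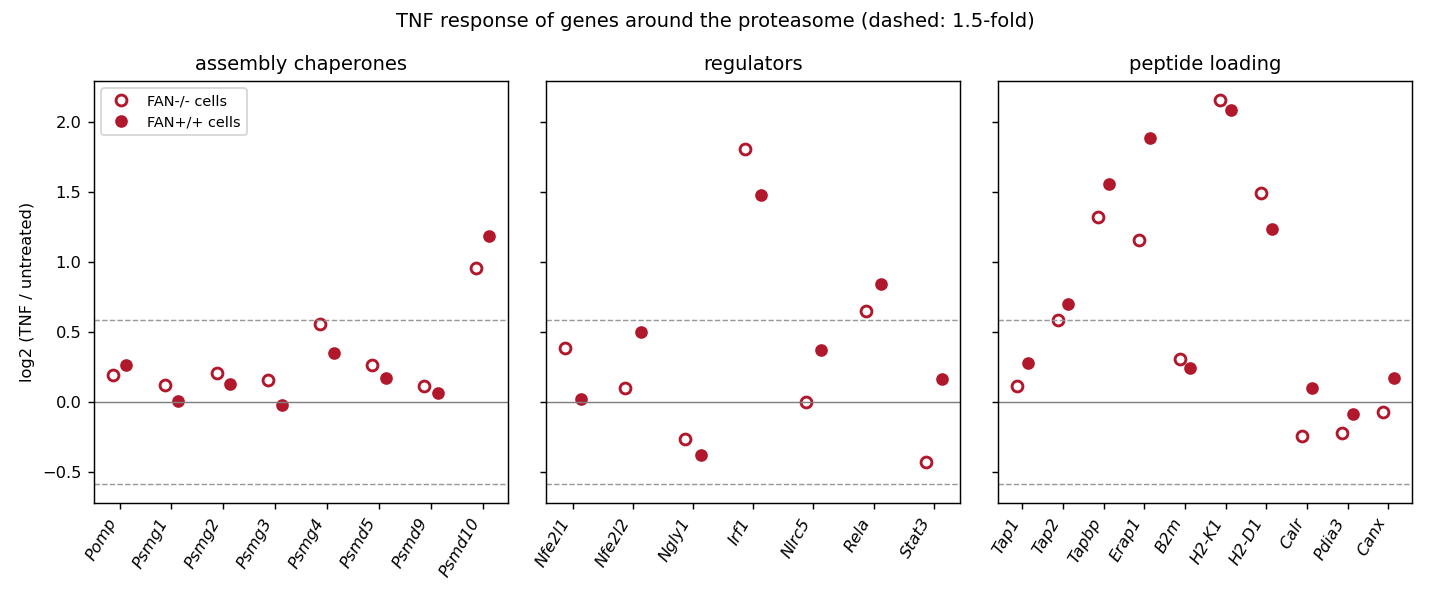
Log2 ratio of TNF-treated to untreated signal (vertical axis) for proteasome assembly chaperones, regulators of subunit genes and peptide loading genes (horizontal axis); open circles are FAN -/- cells, filled circles FAN +/+ cells, and dashed lines mark 1.5-fold. Psmd10, Irf1, Rela, Tap2, Tapbp, Erap1, H2-K1 and H2-D1 exceed 1.5-fold in both genotypes.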

How the data were processed

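Each of the 4 conditions was hybridised to 1 Affymetrix array. The values were used as the authors deposited them, as log2 probe set signals, judged from their range of 2.79 to 14.40. MAS5 is the tool that the submitters' processing notes name; the log step and any normalization between arrays are not given in the sources used here. Array medians lay between 6.21 and 6.30, and whether the arrays had been scaled to each other before deposit is unknown.

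Control probe sets were left out, and 34945 of 45101 probe sets named 1 gene. Symbols were checked by Entrez identifier against RefSeq (GRCm38.p6). Values under the 50th percentile (signal 77.0) were raised to it. Signals are 2 to the power of the deposited value. limma 3.58.1 (R 4.3.3) fitted genotype plus TNF with an intensity trend to genes that exceeded the floor on 2 or more arrays, at an adjusted p of 0.05, and was tested on simulated data. Of 200 genes changed 2-fold there, 165 were called, with 16 false calls, and of 200 changed 4-fold 198, with 13 false calls. The simulated noise was independent between arrays, which the real arrays need not follow. Its variances were drawn from the distribution that limma had fitted to these data. No genotype effect and no unequal TNF response was put in, so the recovery there does not show how well the fit does on the real arrays. The step at 1.5-fold describes single-array differences. The comparison of protein sequences was not made. Named genes are all members, up to 4 genes of each other list past the test or 1.5-fold, and Nsmaf; Tap1 and further genes named beside them were added after their values were seen. Members, lists and rules were chosen with earlier results of these data known. Tried instead were a floor at the 30th or the 70th percentile, log2(signal + 16) with no floor, quantile normalization, centring, other probe sets, and other limma settings. The number of arrays limits the precision.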

Additional observations from a re-analysis of the deposited data

Results flagged for a closer look

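Lum, a fibroblast proteoglycan gene used as a marker, had TNF responses past 1.5-fold in opposite directions in the genotypes: -1.32 log2 in FAN-deficient cells (175 with TNF against 438 untreated), and 0.67 log2 in wild-type cells (10978 against 6876). The difference of responses, FAN-deficient minus wild-type, was -2.00 log2, from 1 array per condition, and it was not tested. No proteasome member had responses past 1.5-fold in opposite directions.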

How the results depend on the processing

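The median response of the inducible members in FAN-deficient cells was 0.84 log2 with the 70th percentile floor and 0.85 with the mean of all probe sets of a gene, where the second Psmb8 probe set, below the floor on all arrays, enters; the untreated genotype median was -0.089 with the 70th percentile floor. In that setting 2 members had a response at least 1.5-fold smaller in FAN-deficient cells, and 0 were 1.5-fold lower untreated, as with log2(signal + 16) and with averaged probe sets. Members that rose with TNF in limma were 5 with centred arrays and 0 with averaged probe sets, without the filter, and without the genotype term, settings in which limma called 0 of all genes either way (988 higher and 1119 lower, 863 and 823, and 450 and 434 at an unadjusted p under 0.05). Members lower in FAN-deficient cells in limma were 1 with log2(signal + 16), 1 with quantile normalization, 1 among genes above the floor on all 4 arrays and 3 with centred arrays. The near-zero genotype effect of Psma6 turned negative with centred arrays (-0.034) and averaged probe sets (-0.0012). The cause was not tested. Over 11 alternatives the limma TNF adjusted p ran from 0.00012 to 0.44 for Psmb8, from 6.7e-05 to 0.44 for Psmb10 and from 0.0045 to 0.44 for Psma6, below 0.05 in 8, 8 and 7 of them. Over all settings, 154 recomputed summary values stayed within 1.5 times of the value reported (or 0.1 log2 for medians), and 15 did not. No leave-one-out fit has a residual degree of freedom; leaving out the pair of arrays of a genotype gives the response of the other. The genotype term of the limma fit already sets each TNF array against the untreated array of its genotype. No paired analysis was possible because, beyond that term, each condition has 1 array and the labels give no replicate numbers.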

Other observations

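Psmb9 and Tap1, a peptide transporter gene, are neighbours in RefSeq that start 225 bases apart on opposite strands, so their upstream windows share those bases. On the arrays their values differed. Psmb9 had log2 responses of 0.72 in FAN-deficient and 1.72 in wild-type cells, while Tap1 had 0.12 and 0.28 in the same order. Tap1 signals were 561 with TNF and 518 untreated in FAN-deficient cells, against 467 and 385 in wild-type cells, so Tap1 was the higher in FAN-deficient cells at both treatments and Psmb9 the lower. The other peptide transporter gene, Tap2, had 334 and 222, against 657 and 405. Tap1 was singled out after its values were seen, and what its probe sets measure was not tested. Its other 3 probe sets lay below the floor on all arrays.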
